A study of Mus musculus with 15 samples.

Results

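The genes described here are 45 neuronal genes, of 53801 genes in the count table of cultured mouse adult neural stem cells. They were chosen by name, and fall into 7 roles. These are proneural and neurogenic transcription factors (6 genes), neuronal RNA-binding proteins (7), cytoskeletal and cell adhesion genes (7), genes of synaptic vesicles and their release (10), dense-core granule genes (5), the GABA-synthesising enzymes (2), and genes of synaptic adhesion and the postsynaptic side (8). All 45 were found in the table, and 44 had enough reads to be tested. The remaining gene, Eomes, reached at most 15 reads in any library.

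Poly(A) RNA of 15 primary cultures was sequenced, 5 in each of 3 groups, from mice 2 months old of a mixed C57BL6/J-129sv background. Every culture carried Rosa26-CreERT2, a Cre recombinase that is driven from a broadly active locus and enters the nucleus when 4-hydroxytamoxifen (4-OHT) binds it. The groups were Trrap Fl/+ cells without treatment (Fl/+ untreated), Trrap Fl/+ cells given 4-OHT (Fl/+ 4-OHT), and Trrap Fl/Fl cells given 4-OHT (Fl/Fl 4-OHT). The labels give 5 days of 4-OHT, whereas the methods describe a shorter exposure followed by fresh medium. TRRAP is a scaffold subunit of several histone acetyltransferase complexes. By design, 4-OHT is to recombine the single floxed allele of the Fl/+ cells and both alleles of the Fl/Fl cells, which was not tested here. Mice 19, 24, 26, 35 and 36 each gave an untreated and a treated Fl/+ culture, and mice 27, 28, 29, 37 and 39 gave the Fl/Fl cultures. Exposure to 4-OHT and loss of a single allele cannot be told apart in the Fl/+ 4-OHT group, and genotype and mouse cannot be told apart between Fl/Fl and Fl/+ cultures. Libraries are named below by group and mouse number, and per-library values follow the order of the mouse numbers just given.

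A new neuron passes through proneural transcription factors, which commit a progenitor, then through migration and neurite growth, and later assembles synapses. At a synapse, vesicles of small transmitters fuse through SNARE proteins under the control of synaptotagmins and complexins, while peptides leave from dense-core granules. Neural stem cells hold many of these transcripts at low levels before any neuron is formed, and several members also serve in glia or in dividing precursors.

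The libraries held 25720034 to 32187097 assigned reads, so that 3 reads, the floor used for a gene not detected, came to about 0.1 CPM, the read count of a gene scaled to the size of its library. The neural stem cell markers Nes (489 to 1380 CPM) and Sox2 (200 to 509 CPM) were present in every library. Trrap itself was at 193, 214, 184, 179 and 181 CPM in untreated Fl/+ cultures, at 138, 204, 171, 165 and 142 CPM in Fl/+ 4-OHT cultures, and at 92.9, 115, 142, 89.3 and 82.8 CPM in Fl/Fl 4-OHT cultures. Trrap fell by 0.64 ± 0.16 (SE) on the log2 scale from Fl/+ 4-OHT to Fl/Fl cultures (adjusted p = 0.0115), and the library Fl/Fl 4-OHT 29 lay inside the Fl/+ 4-OHT range. From untreated to Fl/+ 4-OHT cultures its log2 fold change was -0.21 ± 0.11 (adjusted p = 0.234, or 0.0838 with mouse as a block). The library labelled Fl/Fl 4-OHT 39, female by its label, held Xist at 0.313 CPM and Ddx3y at 54.1 CPM, as the males did. Both cultures of mouse 36, male by its label, held Xist beside Y-linked genes, at 5.89 CPM untreated and 74.7 CPM with 4-OHT. The fits with sex as a covariate used the labels as given. Of the lists of other cell types, 6 microglia markers summed to at most 2.02 CPM and 5 endothelial markers to at most 8.53 CPM in any library, with 2 of the microglia markers at 0 reads in each group (among Aif1, Cx3cr1 and Ptprc). The summed CPM of 11 oligodendrocyte lineage markers ran from 3498 to 4559 in untreated, 3399 to 4701 in Fl/+ 4-OHT and 3617 to 5436 in Fl/Fl 4-OHT cultures, and 6 of them rose with 4-OHT (6 and 1 lower with mouse as a block), while with Trrap deletion 0 were called. Of 12 neural stem cell markers, 4 fell and 0 rose with Trrap deletion, and 3 fell and 2 rose with 4-OHT (4 and 2 with mouse as a block). Of 7 astrocyte markers, 1 rose with Trrap deletion, and 3 fell and 1 rose with 4-OHT (3 and 2 with the block), the rise being that of Gfap (log2 fold change 3.25 ± 0.85 SE, adjusted p = 0.0283). The proliferation marker Mki67 fell by 1.35 ± 0.25 on the log2 scale with Trrap deletion (adjusted p = 0.00243). Of 5 ependymal markers, 4 were tested and 1 rose with Trrap deletion, and their summed CPM ran from 28.0 to 65.6 in untreated, 40.7 to 92.8 in Fl/+ 4-OHT and 78.4 to 105 in Fl/Fl 4-OHT cultures. Between Fl/Fl and untreated cultures 5 of the stem cell markers fell and 0 rose, 3 astrocyte markers fell and 1 rose, 6 oligodendrocyte lineage markers rose and 1 fell, and 3 of 4 ependymal markers tested rose. The part of these cells in the results below was not tested.

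Levels of the members spanned several orders of magnitude. In untreated Fl/+ cultures, 11 members averaged at least 100 CPM, 16 lay between 10 and 100, 16 between 1 and 10, and 2 below 1 CPM. Divided by exon length, Syt11, a synaptotagmin that does not bind calcium, was the most abundant member in all 3 groups, at 378, 322 and 380 CPM per kb. Scg3, Ncam1, Camk2b and Cplx2 came next in untreated cultures, at 87.2, 58.6, 56.0 and 54.1 CPM per kb. Ncam1 (43.1 to 72.2 CPM per kb) overlapped with each of the other 3, and Camk2b (43.6 to 68.0) with Cplx2, while Scg3 (70.9 to 111) lay above Camk2b in every untreated library. At the other end, Eomes, Gad2, Myt1l, L1cam and Syt1 averaged 0.0684, 0.0876, 0.107, 0.141 and 0.213 CPM per kb. A general synaptotagmin of neurons, Syt1, was thus 3 orders of magnitude below Syt11 in these cells. Cplx1 moved from rank 10 of 45 in untreated cultures to rank 28 in Fl/Fl 4-OHT cultures, and Camkv from rank 38 to rank 17. The count of members under 1 CPM was 1 in Fl/+ 4-OHT cultures (Eomes) and 4 in Fl/Fl 4-OHT cultures (Eomes, Neurog2, L1cam and Gad2).

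**Figure D1:**
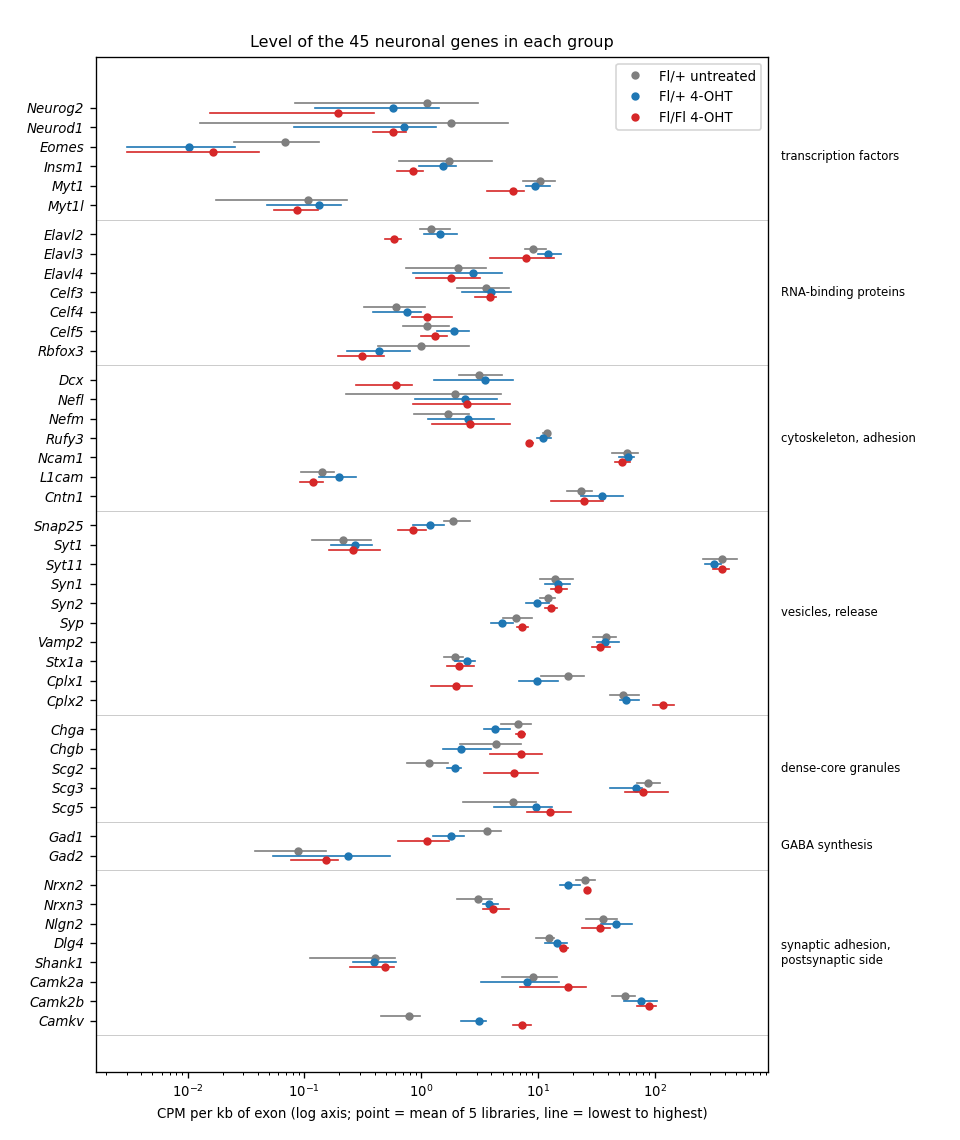
Level of the 45 members in CPM per kb of exon on a log axis, by role, in untreated Fl/+ (grey), Fl/+ 4-OHT (blue) and Fl/Fl 4-OHT (red) cultures; points are means of 5 libraries and lines run from the lowest to the highest, with values of 0 drawn at 0.003. Syt11 stands highest at 322 to 380 and Eomes lowest, while the red points of Dcx, Elavl2 and Cplx1 lie to the left of the other groups and those of Cplx2, Scg2 and Camkv to the right.

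To ask what Trrap deletion changed, Fl/Fl 4-OHT cultures were compared with Fl/+ 4-OHT cultures. Doublecortin (Dcx), the Hu protein gene Elavl2 and the complexin Cplx1 were lower in the Fl/Fl cultures, and the granins Scg2 and Chgb, Camkv and the complexin Cplx2 were higher. Of the 44 members tested, 6 fell (Dcx, Cplx1, Elavl2, Insm1, Myt1 and Rufy3) and 9 rose (Chgb, Scg2, Camkv, Camk2a, Cplx2, Chga, Syp, Nrxn2 and Syn2). In bulk RNA, fewer cells of a type and less RNA per cell cannot be told apart. Change here means an adjusted p under 0.05 in the edgeR quasi-likelihood test, with adjustment over all genes tested. By the same rule 15.0% of all 15036 genes fell and 16.8% rose, so the shares among the members, 13.6% and 20.5%, were near those of genes at large. The median log2 fold change was -0.09 over the members and 0.02 over all genes. Without Fl/Fl 4-OHT 39, whose label and sex-linked genes differ, 8 members rose and 6 fell, and without Fl/+ 4-OHT 36 or Fl/Fl 4-OHT 29 8 rose and 7 fell. All 6 falls lay among transcription factors, RNA-binding proteins, cytoskeletal genes and vesicle genes, and all 9 rises among vesicle genes, granule genes and genes of synaptic adhesion and the postsynaptic side.

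**Figure D2:**
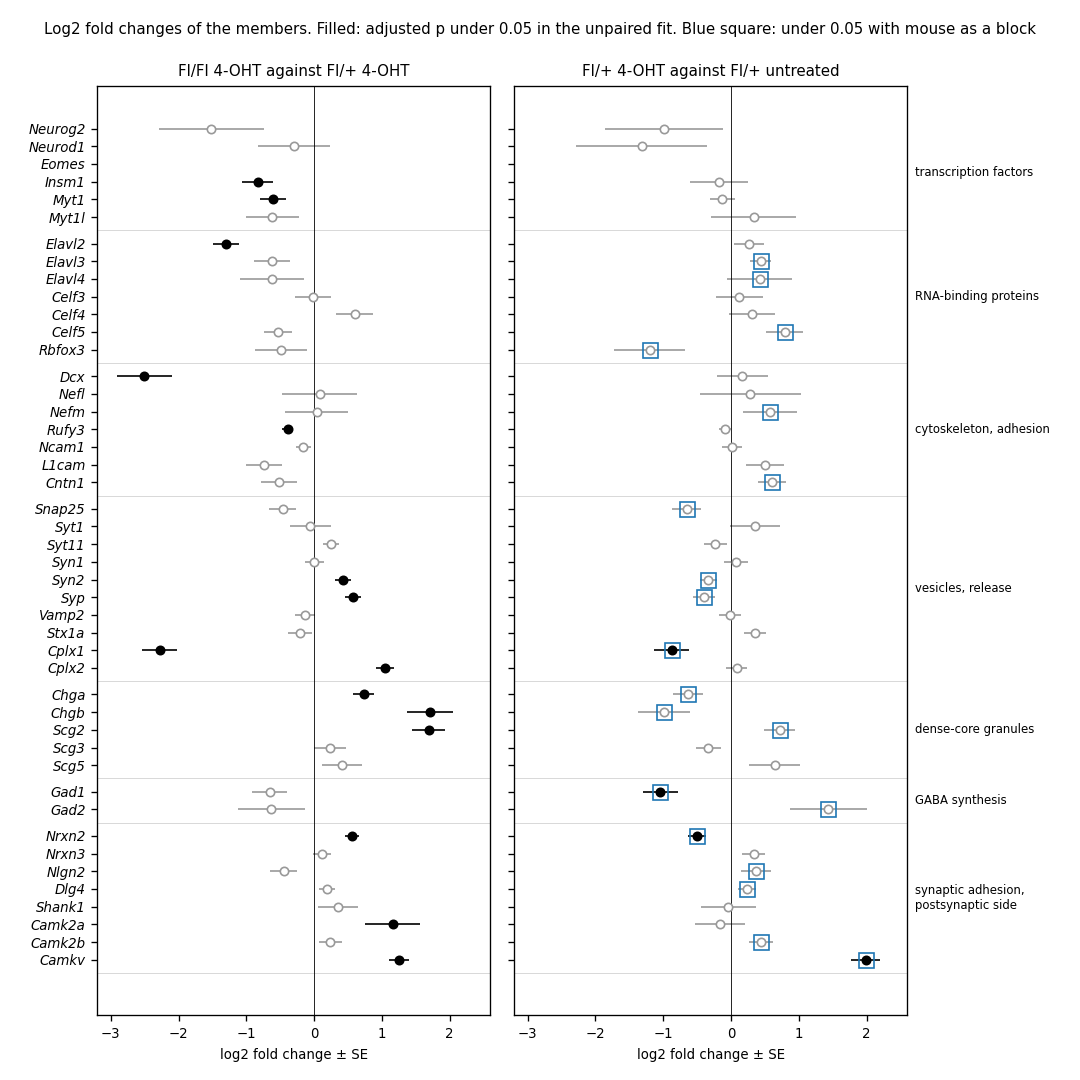
Log2 fold change with its SE for the members by role, Fl/Fl 4-OHT against Fl/+ 4-OHT on the left and Fl/+ 4-OHT against Fl/+ untreated on the right. Filled points had an adjusted p under 0.05 in the unpaired fit (15 on the left, 4 on the right), and blue squares mark the 20 members under 0.05 with mouse as a block. Dcx and Cplx1 are the lowest filled points on the left, at -2.51 and -2.28.

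The second comparison set Fl/+ 4-OHT against untreated Fl/+ cultures of the same mice. In the unpaired fit 1 member rose (Camkv) and 3 fell (Cplx1, Gad1 and Nrxn2), against 7.34% of 14821 genes that rose and 6.45% that fell. Cultures of the same mouse deviated from their group means together, so the fit was repeated with mouse as a block. With the replicate block 11 members rose and 9 fell, against 13.8% and 11.9% of all genes, and the 4 calls of the unpaired fit were among them. Without Fl/+ 4-OHT 36 the unpaired fit gave 1 member higher and 1 lower, and without Fl/+ untreated 36 1 and 2. Scaling by library size alone, unpaired, gave 3 members higher and 2 lower. With the block, 3 RNA-binding proteins rose and 1 fell, 2 cytoskeletal or adhesion genes rose and 0 fell, and 4 genes of synaptic adhesion and the postsynaptic side rose and 1 fell. Of the vesicle genes 0 rose and 4 fell, of the dense-core granule genes 1 rose and 2 fell, of the GABA enzymes 1 rose and 1 fell, and of the transcription factors 0 passed.

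**Figure D3:**
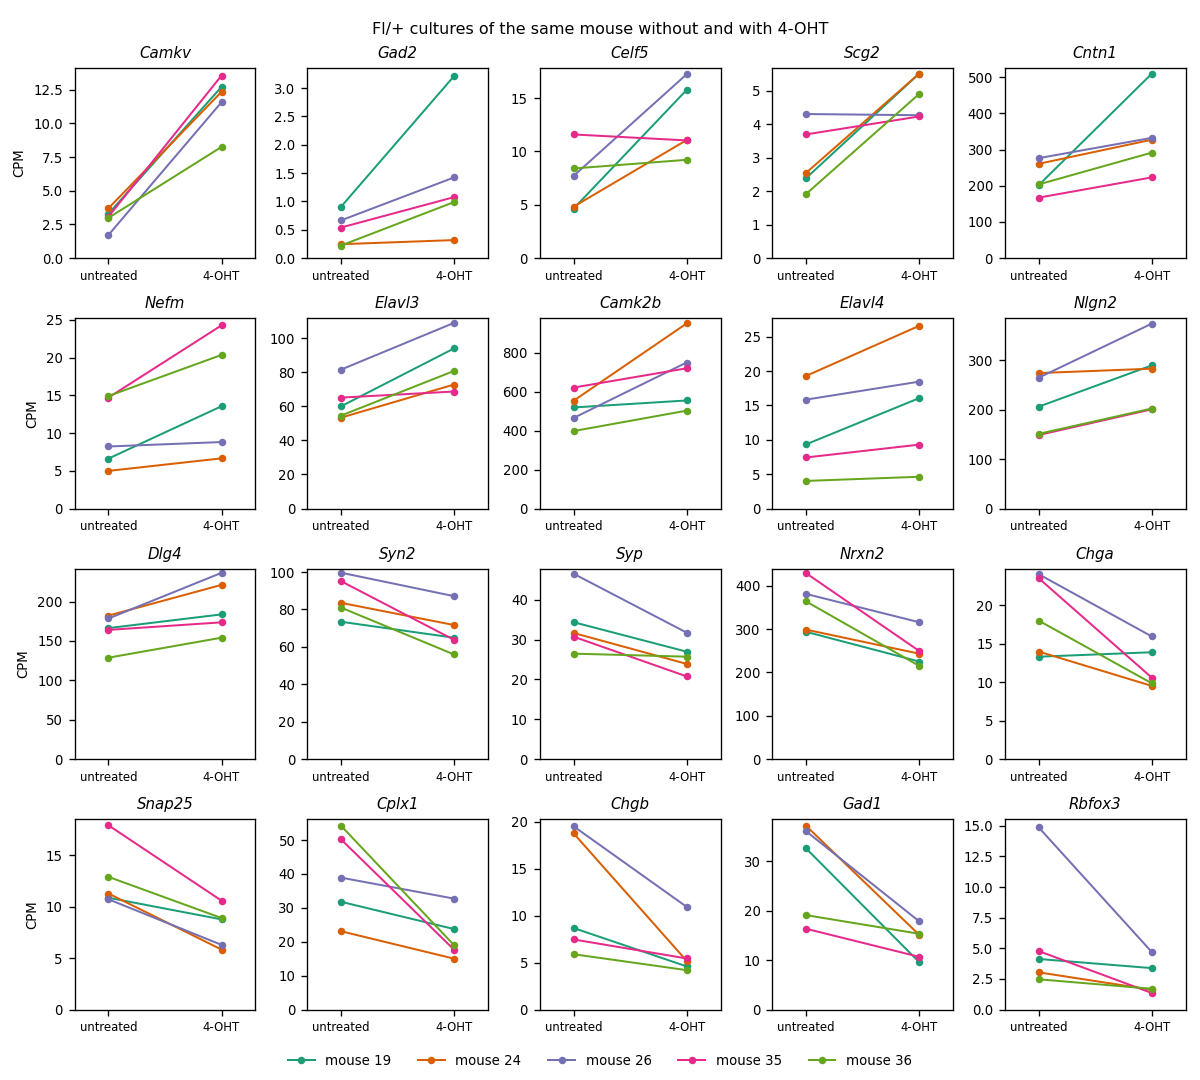
CPM of the 20 members called with mouse as a block, in untreated and 4-OHT Fl/+ cultures, with a line for each of the 5 mice and panels ordered from the largest rise to the largest fall. Lines of 1 panel run mostly in 1 direction from different starting levels, as for Elavl4, whose untreated values ran from 4.02 to 19.3 CPM.

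In the third comparison, of Fl/Fl 4-OHT with untreated Fl/+ cultures, genotype and treatment differed together. Of the 44 members tested, 7 rose and 8 fell, against 15.7% and 15.1% of 15032 genes, and without Fl/Fl 4-OHT 39 6 rose and 8 fell. Each pair of comparisons shares 5 libraries, so their values are given side by side below and are not independent of each other. Over all 3 comparisons 21 members were called at least once in the unpaired fits and 24 in none. The share of all genes called at least once was not counted. Whether 21 members are more or fewer than among genes at large therefore cannot be read from this count.

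**Figure D4:**
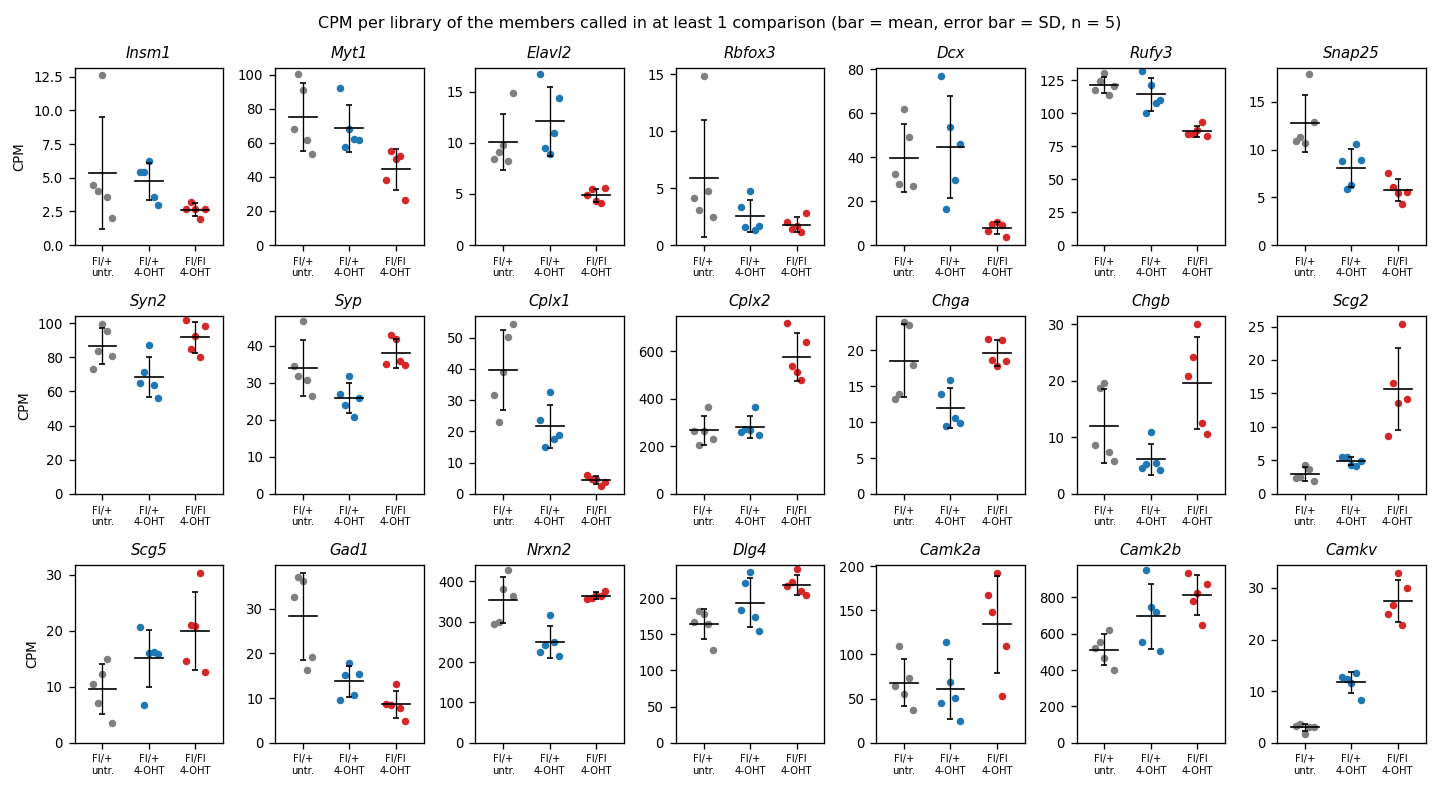
CPM in each library of the 21 members called in at least 1 comparison, with a separate vertical axis from 0 for each gene; bars are means and error bars SDs of 5 libraries. Dcx, Cplx1, Elavl2 and Rufy3 lie lowest in all Fl/Fl 4-OHT libraries, Cplx2, Scg2 and Camkv lie highest there, and Syp, Chga and Nrxn2 are lowest in Fl/+ 4-OHT cultures.

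Among the proneural and neurogenic factors, Myt1, a zinc finger factor of oligodendrocyte precursors and new neurons, was the most abundant. It was at 68.2, 100, 91.2, 61.9 and 53.3 CPM in untreated cultures and at 92.1, 57.4, 68.2, 62.3 and 61.9 CPM after 4-OHT in Fl/+ cultures. In Fl/Fl 4-OHT cultures it was at 38.1, 55.1, 50.6, 52.2 and 26.4 CPM. Every Fl/Fl library lay below every Fl/+ 4-OHT library, although the gap between 55.1 and 57.4 CPM was narrow. The log2 fold change of Myt1 was -0.60 ± 0.20 SE with Trrap deletion (adjusted p = 0.0364) and -0.13 ± 0.18 with 4-OHT, and the first was not called without Fl/+ 4-OHT 19, Fl/+ 4-OHT 26 or Fl/Fl 4-OHT 27 (adjusted p up to 0.0874). Against untreated cultures Myt1 fell by 0.74 ± 0.22 on the log2 scale (adjusted p = 0.027), a call lost in 3 of 10 fits that left out a library.

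Insm1, a zinc finger factor switched on briefly in delaminating neuronal progenitors, stood at 5.45, 5.45, 6.21, 3.57 and 3 CPM in Fl/+ 4-OHT and at 2.67, 3.20, 2.66, 1.94 and 2.71 CPM in Fl/Fl 4-OHT cultures. The groups touched only where Fl/+ 4-OHT 36 lay below Fl/Fl 4-OHT 28. Its log2 fold change with Trrap deletion was -0.83 ± 0.23 SE (adjusted p = 0.0183), and the call was lost with a dispersion estimated over all 15 libraries (adjusted p = 0.118). Untreated cultures were spread more widely, at 4.49, 4.05, 12.6, 3.54 and 1.99 CPM.

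The other 4 factors did not pass the test in any comparison. The proneural factor Neurog2 ran from 0.184 to 6.86 CPM in untreated, 0.278 to 3.16 in Fl/+ 4-OHT and 0.0348 to 0.884 CPM in Fl/Fl 4-OHT cultures, with a log2 fold change of -1.52 ± 0.78 SE with Trrap deletion (adjusted p = 0.158) and -2.51 ± 0.89 against untreated cultures (adjusted p = 0.0529). Without Fl/+ 4-OHT 26 the first value for Neurog2 was -0.87, and without the untreated culture of mouse 26 the second was -1.68. Against untreated cultures Neurog2 passed in 4 of 7 other settings, among them DESeq2 (adjusted p = 0.0362). Neurod1, a factor of neuronal maturation, differed as much among untreated cultures, from 0.0349 to 15.1 CPM. Myt1l, a neuronal repressor of other cell fates, stayed under 3.28 CPM in every library. Eomes, a marker of intermediate progenitors, was at 0.105 to 0.553 CPM in untreated cultures and at 0 to 0.106 CPM after 4-OHT in Fl/+ cultures, most of the latter below the floor of 3 reads. It was outside the main fits, and with no filter on low counts it was lower with 4-OHT (adjusted p = 0.0324).

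Of the 7 RNA-binding proteins, Elavl2 fell with Trrap deletion and none rose. Elavl2, Elavl3 and Elavl4 encode the neuronal Hu proteins, which stabilise messages of neuronal genes. Elavl2 was at 8.47, 9.14, 9.80, 8.20 and 14.8 CPM in untreated cultures, at 16.7, 9.54, 8.89, 10.9 and 14.4 CPM in Fl/+ 4-OHT cultures, and at 4.88, 5.48, 4.26, 4.10 and 5.56 CPM in Fl/Fl 4-OHT cultures. Fl/Fl libraries lay below all 10 others. The log2 fold change was -1.30 ± 0.19 SE with Trrap deletion (adjusted p = 0.000721) and -1.04 ± 0.19 against untreated cultures (adjusted p = 0.00253), and it was 0.26 ± 0.22 between Fl/+ 4-OHT and untreated cultures. Its paralogs Elavl3 and Elavl4 rose with 4-OHT in the blocked fit, higher in 5 of 5 mice for each. Elavl3 went from 60.0, 53.4, 81.5, 65.1 and 54.6 CPM to 94.0, 72.8, 109, 68.7 and 80.8 CPM (blocked log2 fold change 0.43, adjusted p = 0.0109, against 0.0784 unpaired). For Elavl4 the blocked value was 0.41 (adjusted p = 0.0423). With Trrap deletion the values were -0.62 ± 0.27 SE for Elavl3 (adjusted p = 0.098) and -0.62 ± 0.47 for Elavl4 (adjusted p = 0.345).

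Rbfox3, the splicing factor detected as the antigen NeuN in mature neurons, was at 4.13, 3.04, 14.9, 4.77 and 2.47 CPM in untreated cultures. It was at 3.38, 1.61, 4.70, 1.35 and 1.69 CPM in Fl/+ 4-OHT and at 2.02, 1.40, 1.64, 1.12 and 2.81 CPM in Fl/Fl 4-OHT cultures. The groups overlapped, and 1 untreated culture, of mouse 26, stood far above the rest. Rbfox3 fell in 5 of 5 mice with 4-OHT (blocked log2 fold change -1.05, adjusted p = 0.0196, against -1.20 and 0.156 unpaired) and was lower in Fl/Fl than in untreated cultures (-1.69 ± 0.49 SE, adjusted p = 0.0227, not called without Fl/Fl 4-OHT 28 or Fl/Fl 4-OHT 37). Without the untreated culture of mouse 26 the latter value for Rbfox3 was -0.98 (adjusted p = 0.0368) and the unpaired value with 4-OHT -0.50 (adjusted p = 0.456). The 3 Celf splicing factors gave log2 fold changes of -0.02 (Celf3), 0.60 (Celf4) and -0.54 (Celf5) with Trrap deletion, none of which passed. Celf5 rose with 4-OHT in the blocked fit (0.83, adjusted p = 0.0497), in 4 of 5 mice.

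Among cytoskeletal and adhesion genes, Dcx showed the largest change of any member with Trrap deletion. It encodes doublecortin, a microtubule-binding protein of migrating neuroblasts. Untreated cultures held 32.5, 27.9, 61.9, 49.2 and 26.9 CPM of Dcx, and Fl/+ 4-OHT cultures held 77.1, 16.4, 53.8, 29.4 and 46.0 CPM. Fl/Fl 4-OHT cultures held 6.28, 9.49, 10.5, 8.98 and 3.48 CPM, all below the lowest Fl/+ library of 16.4 CPM. The log2 fold change was -2.51 ± 0.41 SE (5.68-fold lower, adjusted p = 0.00123), -2.34 ± 0.33 against untreated cultures (adjusted p = 0.000572), and 0.17 ± 0.37 between Fl/+ 4-OHT and untreated cultures (adjusted p = 0.804).

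Rufy3, which takes part in axon growth and neuronal polarity, changed little in size but with small spread. It was at 117, 125, 130, 114 and 120 CPM in untreated, 132, 99.8, 122, 108 and 110 CPM in Fl/+ 4-OHT, and 84, 84, 87.3, 93.5 and 83 CPM in Fl/Fl 4-OHT cultures. The Fl/Fl libraries lay below all others. Its log2 fold change was -0.39 ± 0.08 SE (adjusted p = 0.0045) with Trrap deletion and -0.48 ± 0.07 (adjusted p = 0.000639) against untreated cultures.

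The neurofilament genes Nefl and Nefm, the adhesion molecules Ncam1 and L1cam, and the contactin Cntn1 did not pass with Trrap deletion. Their log2 fold changes were 0.08, 0.04, -0.16, -0.74 and -0.51 in that order, L1cam with an adjusted p of 0.0528 at 0.68 to 2.03 CPM in the 4-OHT cultures. L1cam passed in 5 of 8 other settings, among them DESeq2 (adjusted p = 0.0355). Nefl and Nefm lie on opposite strands of chromosome 14 with Nefl inside the span of Nefm, and reads were assigned by strand. Cntn1 rose with 4-OHT in 5 of 5 mice, from 202, 261, 276, 167 and 204 to 510, 327, 332, 223 and 292 CPM (blocked log2 fold change 0.57, adjusted p = 0.0256). Nefm also rose in 5 of 5 mice (0.55, adjusted p = 0.0278). Nefl ranged from 0.768 to 16.3 CPM among untreated cultures, and no direction could be seen over that spread.

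Among genes of vesicles and release, 2 complexin paralogs moved in opposite directions. Complexins clamp and trigger the assembled SNARE complex. Cplx1 was at 31.8, 23.1, 38.9, 50.2 and 54.2 CPM in untreated and at 23.7, 15.0, 32.7, 17.7 and 19.0 CPM in Fl/+ 4-OHT cultures. It was at 5.94, 4.86, 4.76, 2.67 and 3.75 CPM in Fl/Fl 4-OHT cultures, below every Fl/+ library. Its log2 fold change was -2.28 ± 0.26 SE with Trrap deletion (4.85-fold lower, adjusted p = 0.000192) and -0.87 ± 0.26 with 4-OHT (adjusted p = 0.0464, lower in 5 of 5 mice, blocked adjusted p = 0.0175). Against untreated cultures it was -3.16 ± 0.28 (adjusted p = 5.48e-05). The 4-OHT call in the unpaired fit was lost in 8 of 10 fits that left out a library (adjusted p up to 0.108).

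Cplx2 was at 264, 206, 266, 366 and 231 CPM in untreated and at 259, 274, 269, 364 and 247 CPM in Fl/+ 4-OHT cultures. In Fl/Fl 4-OHT cultures it was at 721, 536, 512, 477 and 640 CPM, above every Fl/+ library. The log2 fold change of Cplx2 was 1.04 ± 0.14 SE with Trrap deletion (adjusted p = 0.000426), 0.09 ± 0.16 with 4-OHT and 1.13 ± 0.16 against untreated cultures (adjusted p = 0.000662). On the per-length scale, Cplx2 exceeded Cplx1 in all groups, at 54.1 and 18.1 CPM per kb in untreated and at 117 and 2.01 CPM per kb in Fl/Fl 4-OHT cultures. No reads shared by several places were counted, so stretches identical between paralogs give no counts to either gene.

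The vesicle genes Syp (synaptophysin) and Syn2 (synapsin II) were lowest in Fl/+ 4-OHT cultures. Syp was at 34.4, 31.7, 46.6, 30.8 and 26.5 CPM in untreated, 27.0, 23.9, 31.8, 20.8 and 25.7 CPM in Fl/+ 4-OHT, and 35.0, 42.8, 41.7, 35.8 and 34.6 CPM in Fl/Fl 4-OHT cultures. Fl/Fl libraries lay above all Fl/+ 4-OHT libraries but within or near the untreated range. Syp rose with Trrap deletion (0.57 ± 0.12 SE, adjusted p = 0.00454), fell with 4-OHT in 5 of 5 mice (blocked log2 fold change -0.38, adjusted p = 0.0237), and gave 0.17 ± 0.14 between Fl/Fl and untreated cultures (adjusted p = 0.401). Syn2 was at 73.4, 83.6, 99.7, 95.1 and 81.0 CPM in untreated and 64.9, 71.7, 87.1, 63.8 and 55.9 CPM in Fl/+ 4-OHT cultures. In Fl/Fl 4-OHT cultures it was at 102, 85.2, 92.7, 80.3 and 98.5 CPM, and Fl/+ 4-OHT 26 lay above Fl/Fl 4-OHT 28 and 37. The means of Syn2 followed the same order as those of Syp, with 0.43 ± 0.12 SE for Trrap deletion (adjusted p = 0.0175), -0.34 for 4-OHT in the blocked fit (adjusted p = 0.023) and 0.10 ± 0.10 against untreated cultures. The Fl/+ 4-OHT libraries enter the first 2 of these comparisons with opposite sign.

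Snap25, a SNARE protein of the plasma membrane, was at 10.9, 11.3, 10.7, 17.9 and 12.9 CPM in untreated, 8.76, 5.83, 6.29, 10.6 and 8.89 CPM in Fl/+ 4-OHT, and 7.52, 6.12, 5.41, 4.33 and 5.53 CPM in Fl/Fl 4-OHT cultures. All 4-OHT libraries lay below all untreated libraries. Snap25 fell in 5 of 5 mice with 4-OHT (blocked log2 fold change -0.66, adjusted p = 0.00838, against 0.0581 unpaired) and by 1.12 ± 0.19 SE between Fl/Fl and untreated cultures (adjusted p = 0.00167). With Trrap deletion its log2 fold change was -0.46 ± 0.20 (adjusted p = 0.0988). The other vesicle genes, Syt1, Syt11, Syn1, Vamp2 and Stx1a, passed in no comparison, with log2 fold changes between -0.21 and 0.25 with Trrap deletion.

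Of the 5 dense-core granule genes, 3 rose with Trrap deletion and 0 fell, where 16.8% and 15.0% of all genes did. Scg2, secretogranin II, is a granin that is cut into peptides. It was at 2.39, 2.55, 4.30, 3.70 and 1.92 CPM in untreated cultures, at 5.51, 5.51, 4.27, 4.23 and 4.91 CPM in Fl/+ 4-OHT cultures, and at 8.67, 16.6, 13.6, 25.3 and 14.1 CPM in Fl/Fl 4-OHT cultures. Each Fl/Fl library lay above each Fl/+ library. The log2 fold change was 1.69 ± 0.24 SE with Trrap deletion (adjusted p = 0.000611) and 2.41 ± 0.31 against untreated cultures (adjusted p = 0.000352), and the blocked value with 4-OHT was 0.77 (adjusted p = 0.0487, higher in 4 of 5 mice).

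The chromogranins Chga and Chgb, which condense granule cargo, were also lowest in Fl/+ 4-OHT cultures. Chgb was at 8.69, 18.8, 19.5, 7.47 and 5.89 CPM in untreated, 4.60, 5.20, 10.9, 5.45 and 4.20 CPM in Fl/+ 4-OHT, and 20.8, 24.2, 30, 12.5 and 10.6 CPM in Fl/Fl 4-OHT cultures. Fl/Fl and Fl/+ 4-OHT libraries overlapped only where Fl/Fl 4-OHT 39 at 10.6 lay beside Fl/+ 4-OHT 26 at 10.9 CPM. Chgb rose with Trrap deletion (1.71 ± 0.34 SE, adjusted p = 0.00378), fell with 4-OHT in 5 of 5 mice (blocked log2 fold change -0.91, adjusted p = 0.0154), and gave 0.71 ± 0.39 against untreated cultures (adjusted p = 0.189). Chga was at 13.9, 9.5, 15.9, 10.6 and 9.85 CPM in Fl/+ 4-OHT and at 21.6, 18.7, 17.9, 21.5 and 18.6 CPM in Fl/Fl 4-OHT cultures, without overlap. Its values were 0.73 ± 0.15 SE with Trrap deletion (adjusted p = 0.00485), -0.62 with 4-OHT in the blocked fit (adjusted p = 0.0285, lower in 4 of 5 mice) and 0.10 ± 0.18 against untreated cultures (adjusted p = 0.716). As for Syp and Syn2, the rise with Trrap deletion was read against Fl/+ 4-OHT cultures that lay below the untreated ones.

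Scg5, the chaperone 7B2 of prohormone convertase 2, rose between untreated and Fl/Fl 4-OHT cultures only (1.06 ± 0.35 SE, adjusted p = 0.0411). It ran from 3.57 to 15.0 CPM in untreated, 6.65 to 20.7 CPM in Fl/+ 4-OHT and 12.7 to 30.4 CPM in Fl/Fl 4-OHT cultures, with overlap throughout, and the call was lost in 5 of 10 fits that left out a library and with sex as a covariate. Scg3, which anchors granins to the granule membrane, ranged from 113 to 357 CPM over all libraries and passed in no comparison.

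To set changes beside sequence, windows from 250 bases before to 50 bases after RefSeq gene starts (GRCm38.p6) were read for 35 of the 45 members, 70 entries in all. They were searched on both strands for the GC box GGGCGG, the letters bound by factors of the Sp family, for the cAMP response element TGACGTCA and its 1-base variant TGACGTAA, and for the E-box CAGCTG of proneural factors. The motifs were chosen with the values known. A GC box was in 47.1% of member entries and 35.7% of all 32851 entries, an E-box in 21 of the 70 and 16.3%, the cAMP response element in 8.57% and 1.79%, and its variant in 1.43% and 0.499%. Member entries had a median of 57.0% G and C and all entries 52.7%, and the part of base composition in these shares was not tested. The cAMP response element was in windows of 4 members, Scg2, Chgb, Syn1 and Celf3, and the variant in that of Chga. Of these members, Syn1 (log2 fold change 0.001, adjusted p = 0.996) and Celf3 (-0.02, adjusted p = 0.97) did not pass with Trrap deletion in the edgeR test. The windows of the 3 granins that rose with Trrap deletion follow, each on its own strand from 5′ to 3′, with cAMP response elements, the variant and GC boxes in capitals.
Scg2, chr1:79439977-79440276, minus strand: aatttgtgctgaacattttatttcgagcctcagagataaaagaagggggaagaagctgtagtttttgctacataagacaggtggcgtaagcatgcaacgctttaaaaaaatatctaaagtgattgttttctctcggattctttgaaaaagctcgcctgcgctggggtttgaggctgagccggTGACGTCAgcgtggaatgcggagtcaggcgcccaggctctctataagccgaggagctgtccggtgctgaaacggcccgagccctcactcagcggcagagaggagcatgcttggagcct
Chgb, chr2:132781392-132781691, plus strand: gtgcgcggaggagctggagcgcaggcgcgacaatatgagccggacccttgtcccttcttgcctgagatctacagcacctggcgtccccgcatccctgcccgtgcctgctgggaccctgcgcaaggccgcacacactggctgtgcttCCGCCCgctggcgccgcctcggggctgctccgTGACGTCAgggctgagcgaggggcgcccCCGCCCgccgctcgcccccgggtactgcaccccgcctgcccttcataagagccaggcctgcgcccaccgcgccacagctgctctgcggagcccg
Chga, chr12:102554691-102554990, plus strand: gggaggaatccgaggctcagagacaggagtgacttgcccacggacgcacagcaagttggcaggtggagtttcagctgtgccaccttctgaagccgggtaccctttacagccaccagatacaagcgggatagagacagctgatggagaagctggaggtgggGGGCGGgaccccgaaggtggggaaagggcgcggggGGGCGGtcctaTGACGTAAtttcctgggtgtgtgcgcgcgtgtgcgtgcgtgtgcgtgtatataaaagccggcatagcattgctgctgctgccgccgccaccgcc
The first base of the element lay 68 bases before the start of Scg2 and 72 before that of Chgb, and the variant 44 bases before that of Chga. Chgb and Chga held 2 GC boxes each and Scg2 none.

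The windows of the 2 members that fell most with Trrap deletion are shown for comparison, with the same letters in capitals.
Dcx, chrX:143933170-143933469, minus strand: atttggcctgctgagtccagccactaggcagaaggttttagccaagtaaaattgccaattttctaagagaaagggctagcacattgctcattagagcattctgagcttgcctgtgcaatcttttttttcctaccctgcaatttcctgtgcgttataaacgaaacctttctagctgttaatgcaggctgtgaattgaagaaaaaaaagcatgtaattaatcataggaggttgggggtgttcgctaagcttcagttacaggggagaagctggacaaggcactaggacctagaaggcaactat
Cplx1, chr5:108549978-108550277, minus strand: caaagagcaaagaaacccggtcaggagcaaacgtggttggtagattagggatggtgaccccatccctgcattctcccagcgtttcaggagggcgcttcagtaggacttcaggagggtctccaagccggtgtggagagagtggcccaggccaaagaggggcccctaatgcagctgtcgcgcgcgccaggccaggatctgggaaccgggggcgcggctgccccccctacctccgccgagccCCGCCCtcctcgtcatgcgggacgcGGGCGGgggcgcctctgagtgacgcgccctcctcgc
The one shown of 2 RefSeq windows of Dcx, at 43.0% G and C, held neither a GC box nor a cAMP response element, and that of Cplx1, at 67.0%, held 2 GC boxes at its start. Members that fell and members that rose thus both included windows with and without a GC box, and a match is a description of the letters only.

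The GABA-synthesising enzymes Gad1 and Gad2 moved apart with 4-OHT. Gad1 was at 32.6, 37.2, 36.1, 16.4 and 19.1 CPM in untreated, 9.61, 15.1, 17.9, 10.7 and 15.3 CPM in Fl/+ 4-OHT, and 8.61, 8.54, 13.2, 7.82 and 4.83 CPM in Fl/Fl 4-OHT cultures. Untreated cultures of mice 35 and 36 lay near the treated ones and the other 3 far above. Gad1 fell with 4-OHT (-1.04 ± 0.26 SE, adjusted p = 0.0235; blocked -1, adjusted p = 0.00799, lower in 5 of 5 mice), a call lost in the unpaired fit without Fl/+ untreated 19 or 26 or without Fl/+ 4-OHT 19 or 35 (adjusted p up to 0.0612). It fell by 1.70 ± 0.30 between Fl/Fl and untreated cultures (adjusted p = 0.00189), with a log2 fold change of -0.66 ± 0.26 with Trrap deletion (adjusted p = 0.0703). Gad2 was at or under 0.905 CPM in untreated and between 0.317 and 3.21 CPM in Fl/+ 4-OHT cultures, higher in 5 of 5 mice (blocked log2 fold change 1.34, adjusted p = 0.0113, against 0.116 unpaired). With Trrap deletion the log2 fold change of Gad2 was -0.63 ± 0.49 (adjusted p = 0.35). It ran from -0.90 to -0.08 when a library was left out, and the unpaired value with 4-OHT from 0.89 to 1.74. The highest value, 3.21 CPM, was that of Fl/+ 4-OHT 19.

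On the postsynaptic side, Camkv gave the clearest stepwise difference between the 3 groups. It encodes a vesicle-associated protein related to the CaM kinases that lacks kinase activity. Camkv was at 3.29, 3.70, 1.72, 3.08 and 2.98 CPM in untreated, 12.7, 12.3, 11.6, 13.6 and 8.26 CPM in Fl/+ 4-OHT, and 24.9, 26.7, 32.9, 22.9 and 30.1 CPM in Fl/Fl 4-OHT cultures. None of the groups overlapped. The log2 fold change was 1.99 ± 0.22 SE with 4-OHT (adjusted p = 0.000457, higher in 5 of 5 mice), 1.25 ± 0.15 with Trrap deletion (adjusted p = 0.000262) and 3.23 ± 0.20 between the outer groups (9.38-fold higher, adjusted p = 1.07e-05). In the unpaired fits Camkv (higher) and Cplx1 (lower) were the members called in all 3 comparisons, and with mouse as a block for 4-OHT Scg2 (higher) was called in all 3 as well. Its window, with 3 GC boxes in capitals, is shown because it changed in every comparison.
Camkv, chr9:107935670-107935969, plus strand: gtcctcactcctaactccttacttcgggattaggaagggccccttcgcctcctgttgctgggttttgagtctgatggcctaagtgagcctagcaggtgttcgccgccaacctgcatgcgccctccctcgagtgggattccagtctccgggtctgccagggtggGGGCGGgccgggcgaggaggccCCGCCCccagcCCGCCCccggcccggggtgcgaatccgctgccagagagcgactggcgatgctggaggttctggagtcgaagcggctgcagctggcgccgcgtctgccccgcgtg

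Camk2a and Camk2b encode the main subunits of CaM kinase II. Camk2a was at 64.8, 109, 55.4, 73.0 and 37.0 CPM in untreated, 44.7, 114, 69.1, 50.8 and 24.6 CPM in Fl/+ 4-OHT, and 167, 148, 193, 52.5 and 110 CPM in Fl/Fl 4-OHT cultures. The library Fl/Fl 4-OHT 37 lay among the Fl/+ libraries, and Fl/Fl 4-OHT 39 at 110 CPM lay below Fl/+ 4-OHT 24 at 114 CPM. The rises of Camk2a, 1.16 ± 0.41 SE with Trrap deletion (adjusted p = 0.0493) and 1.00 ± 0.34 against untreated cultures (adjusted p = 0.0452), were each lost in 8 of 10 fits that left out a library (adjusted p up to 0.111). Camk2b was at 519, 553, 465, 621 and 398 CPM in untreated, 555, 950, 749, 720 and 502 CPM in Fl/+ 4-OHT, and 934, 783, 826, 649 and 875 CPM in Fl/Fl 4-OHT cultures, every Fl/Fl library above every untreated one. It rose against untreated cultures (0.68 ± 0.13, adjusted p = 0.0031) and in 5 of 5 mice with 4-OHT (blocked log2 fold change 0.43, adjusted p = 0.0292), and gave 0.24 ± 0.17 with Trrap deletion.

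The presynaptic adhesion receptor Nrxn2 was at 294, 299, 382, 429 and 364 CPM in untreated, 225, 244, 316, 250 and 215 CPM in Fl/+ 4-OHT, and 357, 359, 368, 365 and 378 CPM in Fl/Fl 4-OHT cultures. Fl/Fl libraries were close to each other and above all Fl/+ 4-OHT libraries. Nrxn2 fell with 4-OHT (-0.50 ± 0.14 SE, adjusted p = 0.0326; lower in 5 of 5 mice, blocked adjusted p = 0.0099), a call lost in 6 of 10 unpaired fits that left out a library, and rose with Trrap deletion (0.56 ± 0.10, adjusted p = 0.00211). Between Fl/Fl and untreated cultures it gave 0.06 ± 0.11 (adjusted p = 0.707). Syp, Syn2, Chga, Chgb and Nrxn2 were thus the 5 members that fell with 4-OHT in the blocked fit and rose with Trrap deletion, and none of them passed between Fl/Fl and untreated cultures. Fl/+ 4-OHT libraries enter the 4-OHT and Trrap deletion comparisons with opposite sign. How many of all genes followed the same pattern was not counted, so no share stands beside these members.

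Dlg4, the scaffold PSD-95 of excitatory synapses, rose from 166, 182, 179, 164 and 129 CPM in untreated to 217, 223, 240, 210 and 204 CPM in Fl/Fl 4-OHT cultures (0.43 ± 0.10 SE, adjusted p = 0.00789), without overlap. Fl/+ 4-OHT cultures, at 184, 221, 237, 174 and 154 CPM, overlapped with both other groups and were higher in 5 of 5 mice than untreated (blocked log2 fold change 0.24, adjusted p = 0.0455). Nlgn2, the neuroligin of inhibitory synapses, rose with 4-OHT in the blocked fit (0.38, adjusted p = 0.015) in 5 of 5 mice and gave -0.45 ± 0.20 with Trrap deletion (adjusted p = 0.101). Nrxn3 and the scaffold gene Shank1 passed in no comparison, at 25.8 to 70.8 and 1.18 to 6.43 CPM over all libraries.

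A further list of 98 neuronal genes outside the 45, chosen in the same roles, was counted beside them. Of 73 tested with Trrap deletion, 10 rose and 15 fell, against 16.8% and 15.0% of all genes. Of 74 tested with 4-OHT, 9 rose and 6 fell (7.34% and 6.45% of all genes), and with mouse as a block 17 rose and 11 fell (13.8% and 11.9%). Between Fl/Fl and untreated cultures 13 of 73 rose and 11 fell (15.7% and 15.1%). By role, 6 of 11 RNA-binding proteins and 3 of 7 transcription factors fell with Trrap deletion and 1 and 0 rose, while of 19 vesicle genes 5 rose and 3 fell. The largest falls with Trrap deletion, among those with a mean of at least 1 CPM, were in the neuronal splicing factor Srrm4 (-1.44 ± 0.46 SE, adjusted p = 0.0343), the neuronal tubulin Tubb3 (-1.04 ± 0.33, adjusted p = 0.0334) and the microtubule-binding tau gene Mapt (-0.94 ± 0.21, adjusted p = 0.00689). Mapt was at 108 to 258 CPM in Fl/+ 4-OHT and 60.8 to 95.8 CPM in Fl/Fl 4-OHT cultures, without overlap. The largest rises were in the RNA-binding protein Celf6 (1.38 ± 0.32, adjusted p = 0.00743), the synaptotagmin Syt3 (1.22 ± 0.25, adjusted p = 0.00435) and the granule protein Resp18 (0.95 ± 0.22, adjusted p = 0.0085).

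With 4-OHT, in the unpaired fit, the largest rises in that list were in the granin-like Vgf (2.5 ± 0.56 SE, adjusted p = 0.0143), the scaffold gene Dlg2 (1.38 ± 0.29, adjusted p = 0.011) and the AMPA receptor gene Gria1 (1.35 ± 0.38, adjusted p = 0.0361). Vgf ran from 1.81 to 5.36 CPM in untreated, 3.17 to 28.2 CPM in Fl/+ 4-OHT and 11.8 to 191 CPM in Fl/Fl 4-OHT cultures. The largest falls were in Nlgn3 (-0.66 ± 0.12, adjusted p = 0.00493), Camk2g (-0.62 ± 0.12, adjusted p = 0.00626) and the splicing regulator Ptbp2 (-0.53 ± 0.16, adjusted p = 0.0476). With mouse as a block all 6 were called in the same direction (adjusted p from 0.00166 for Camk2g to 0.012 for Ptbp2). With Trrap deletion 3 of the 6 were called as well, Gria1 (0.94, adjusted p = 0.00275) and Camk2g (0.49, adjusted p = 0.00162) higher and Ptbp2 (-0.51, adjusted p = 0.00992) lower.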

How the data were processed

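Poly(A) RNA of 15 cultures was sequenced by the authors as stranded single-end reads of 51 cycles on a HiSeq2500. According to the methods and the submitters' processing notes, reads were demultiplexed with bcl2fastq 1.8.4, aligned with STAR 2.5.4b and assigned to genes by strand with featureCounts 1.5.0 under Ensembl 92, with reads mapping to several places left out. The deposited values are raw counts per Ensembl gene, pooled over lanes and without molecular identifiers, so the floor of 3 reads covers counting error only, whereas the SE of a fold change carries the spread between cultures. Gene symbols came from GENCODE M21 (GRCm38), which matched 53706 of 53801 identifiers.

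Groups were taken from the sample labels. Each comparison was fitted on its own 10 libraries in edgeR 4.0.16 (R 4.3.3), with genes kept by filterByExpr at a minimum count of 10, TMM scaling and the quasi-likelihood F test, two-sided, with Benjamini-Hochberg adjustment over all genes tested. A gene was called at an adjusted p under 0.05. CPM values were computed from the counts and library sizes scaled by TMM over all 15 libraries, and the SE is the log2 fold change divided by the square root of F. The same 5 mice gave both Fl/+ groups, and cultures of 1 mouse deviated together (r of 0.156, 0.559, 0.626, 0.591 and 0.536 over 15435 genes), so a fit with mouse as a replicate block is given beside the 4-OHT results whose call or count it changed.

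Alternatives were DESeq2 1.42.0, its size factors, library size alone, no filter, at least 10 counts in every library, the dispersion of all 15 libraries, sex or mouse number (under or above 30) as covariate, and leaving out each library. The members, lists and tests were chosen with earlier results of these data known. Every member was accounted for: those called in any comparison are named with values, and from the further list up to 3 genes of largest fold change in each direction with a mean of at least 1 CPM. Gfap and Mki67 were named after their values were seen.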

Additional observations from a re-analysis of the deposited data

Results flagged for a closer look

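Of 135 groups of 5 libraries (45 members in 3 groups), 8 had a library whose gap to its nearest neighbour exceeded 0.71 of the group's range, which is 5.93% where chance gives about 5%. Among untreated cultures, that of mouse 26 held Insm1 at 12.6 CPM (nearest 4.49) and Rbfox3 at 14.9 CPM (nearest 4.77), and that of mouse 36 held Elavl2 at 14.8 CPM (nearest 9.80). Among Fl/+ 4-OHT cultures, mouse 35 stood apart for Cplx2 at 364 CPM (nearest 274), mouse 26 for Chgb at 10.9 CPM (nearest 5.45) and mouse 24 for Scg3 at 113 CPM (nearest 195). Among Fl/Fl 4-OHT cultures, mouse 37 stood apart for Celf4 at 15.9 CPM (nearest 9.02) and mouse 39 for Shank1 at 2.61 CPM (nearest 5.42).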

How the results depend on the processing

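No member called in a comparison changed direction under any alternative run. Of the members called, 12 of 15 with Trrap deletion, 1 of 4 with 4-OHT (Camkv) and 11 of 15 between Fl/Fl and untreated cultures passed in every setting. With 4-OHT, where 1 member rose and 3 fell, the replicate block gave 11 and 9, DESeq2 4 and 7, the dispersion of all 15 libraries 2 and 5, and sex as a covariate 2 and 6. Mouse number as a covariate gave 5 higher and 4 lower, and library size alone 3 and 2. Over all genes the unpaired 4-OHT fit called 1088 higher and 956 lower, the block 2046 and 1763, DESeq2 1546 and 1457, mouse number as a covariate 1659 and 1511, and library size alone 1396 and 712. The dispersion of all 15 libraries called 1369 genes higher and 1367 lower, and sex as a covariate 1525 and 1408. Without Fl/+ 4-OHT 19, 24, 35 or 36 the unpaired fit called 492, 630, 564 and 630 genes lower. Between Fl/Fl and untreated cultures library size alone called 3150 and 1603, against 2357 and 2263. Leaving out each library gave 8 to 9 members higher and 5 to 8 lower with Trrap deletion, 1 to 3 and 0 to 5 with 4-OHT, and 5 to 7 and 7 to 10 between Fl/Fl and untreated cultures. Over all genes these fits gave 1854 to 2406 higher and 1915 to 2328 lower with Trrap deletion. With 4-OHT they gave 747 to 1358 and 492 to 1164, and between Fl/Fl and untreated cultures 1911 to 2425 and 1789 to 2310. The causes were not tested. Low members had wide errors: with Trrap deletion the SE was 0.78 for Neurog2, 0.49 for Gad2 and 0.40 for Myt1l, against 0.08 for Rufy3.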
